A study of Homo sapiens with 6 samples.

Results

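The 10 genes described here encode parts of the megakaryocyte and platelet: the adhesion receptors GP6, GP1BB, GP9, ITGA2B and ITGB3, the cytoskeletal genes TUBB1 and ARHGAP6, the granule trafficking gene RAB27B, and the secreted proteins PF4 and THBS1. They were taken by name, with earlier results of these data known when they were chosen. Their values were found by summing transcript estimates per GENCODE v44 gene, so that 10 of 62252 genes were kept. Of these, 8 had a mean of more than 10 estimated counts over the libraries and were tested among 21045 genes.

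The libraries were polyA RNA of K562, a human leukemia line that carries erythroid and megakaryocytic traits. All cells held a doxycycline (Dox) inducible Flag-PCBP1 cassette at the AAVS1 site, placed by recombinase-mediated cassette exchange into a parent line that was 1 clone. The stable line made from it was a puromycin-selected pool. The −Dox group (3 libraries) was left uninduced and the +Dox group (3 libraries) received Dox to overexpress PCBP1 (PCBP1 OE), so Dox itself and Flag-PCBP1 cannot be told apart. The dose and duration of Dox for these libraries were not given in the sources used here. Estimated counts per library ran from 74766040 to 84177316 in −Dox and from 70905656 to 82449808 in +Dox. Nothing in the labels says that replicates were separate cultures, and the p-values below measure the spread between these libraries only.

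Megakaryocytes shed platelets through long microtubule-filled extensions built from a lineage-restricted beta tubulin. Platelets stick to damaged vessels through the GPIb-IX-V complex and the collagen receptor glycoprotein VI, and aggregate through the integrin αIIbβ3. They then release alpha and dense granules, and small GTPases of the RAB27 family take part in granule release. K562 cells can be driven toward either the erythroid or the megakaryocytic program, and express some genes of both.

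PCBP1, the poly C-binding protein encoded by the cassette, stood at 248, 270 and 267 CPM (counts scaled to library size with TMM factors) in −Dox and at 1030, 936 and 1037 CPM in +Dox. All +Dox libraries lay above all −Dox libraries, with a log2 fold change of 1.94 ± 0.055 (SE, n = 3 per group, edgeR quasi-likelihood test, Benjamini-Hochberg adjusted p = 5.22e-10), in the direction of the labels. Reads of the cassette and of the endogenous gene were not separated.

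Among the 8 tested genes 4 passed an adjusted p of 0.05 by edgeR's quasi-likelihood test, against 15.8% of all genes tested. RAB27B, GP6 and ARHGAP6 fell (3 of 8, against 7.68% of all genes called lower) and TUBB1 rose (1 of 8, against 8.16% called higher). RAB27B alone also passed an absolute log2 fold change of 1, the limits used here for a differentially expressed gene (DEG), which 0.727% of all genes met in the lower direction. Genes with a mean of at least 1 CPM, a range that holds 7 of the 8 tested genes, were called in 22% of cases. The median log2 fold change of the 8 was −0.34, beside 0.0061 over all genes tested. In bulk RNA, fewer cells of a type and less RNA per cell cannot be told apart.

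**Figure D1:**
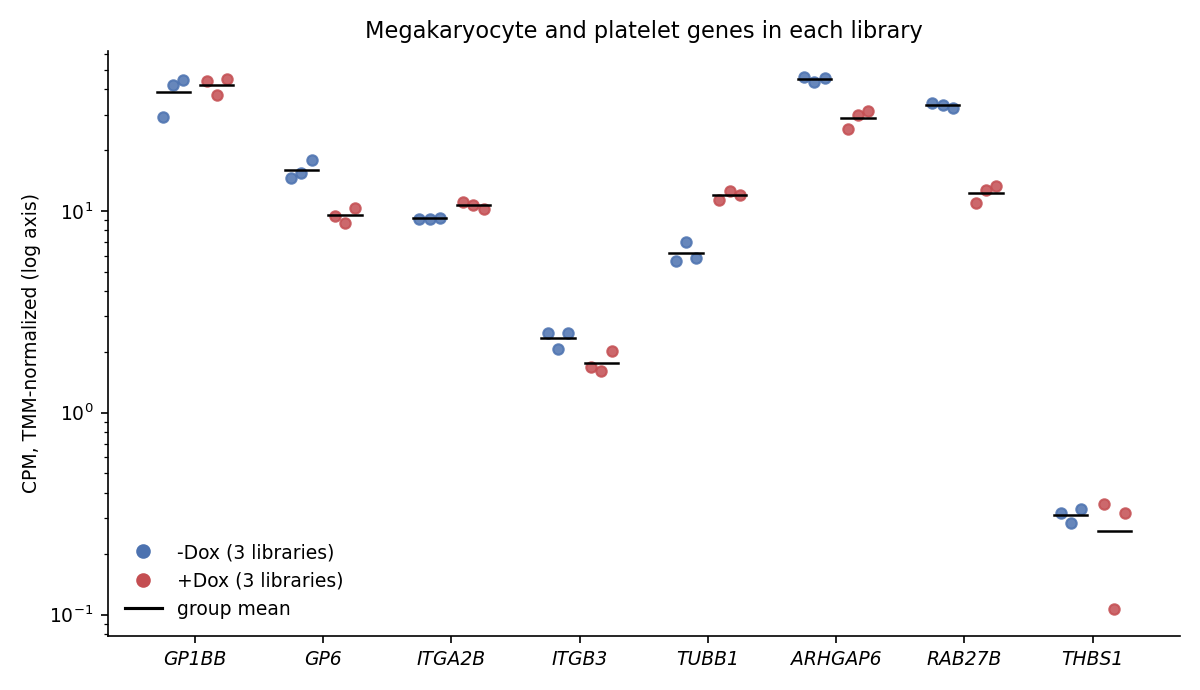
Level of the 8 tested megakaryocyte and platelet genes in each library, in TMM-normalized CPM on a log axis; points are libraries, blue for −Dox and red for +Dox, and black lines are means of 3 libraries. RAB27B, GP6 and ARHGAP6 lie lower in every +Dox library and TUBB1 lies higher, while GP1BB and THBS1 overlap between groups.

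The windows before the transcription starts of RAB27B and GP6, which fell, and TUBB1, which rose, are printed because these are called genes whose RefSeq start coincides with the start of their leading transcript in these libraries. Each line holds the 250 bases before the start on the gene's strand, 5′ to 3′, from RefSeq GRCh38.p14. Capitals mark letters of 4 motifs of megakaryocytic factors, searched on both strands: GATA (written AGATAA, also as TGATAA, also as AGATAG and also as TGATAG), RUNX (TGTGGT), NF-E2 (TGAGTCA) and ETS (AGGAAG). The windows are chr18:54828227-54828476 (plus strand) for RAB27B, chr19:55038265-55038514 (minus strand) for GP6 and chr20:59019179-59019428 (plus strand) for TUBB1.
RAB27B: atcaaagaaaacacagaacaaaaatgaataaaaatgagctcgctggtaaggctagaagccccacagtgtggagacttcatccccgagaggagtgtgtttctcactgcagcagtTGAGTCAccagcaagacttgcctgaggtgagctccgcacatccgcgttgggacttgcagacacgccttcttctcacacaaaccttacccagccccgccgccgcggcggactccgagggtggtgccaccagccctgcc
GP6: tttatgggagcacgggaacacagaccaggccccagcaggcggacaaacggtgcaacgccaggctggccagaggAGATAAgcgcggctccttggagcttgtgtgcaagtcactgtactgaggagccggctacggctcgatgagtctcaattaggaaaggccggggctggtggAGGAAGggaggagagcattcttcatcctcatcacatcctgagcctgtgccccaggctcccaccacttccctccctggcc
TUBB1: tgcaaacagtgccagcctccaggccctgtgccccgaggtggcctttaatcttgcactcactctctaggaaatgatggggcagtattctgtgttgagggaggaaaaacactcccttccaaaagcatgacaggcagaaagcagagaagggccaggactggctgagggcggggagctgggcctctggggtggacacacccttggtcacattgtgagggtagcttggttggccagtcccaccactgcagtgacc
The RAB27B window held 1 NF-E2 match, beginning at −137 from the start, a motif found in 4.2% of 35116 RefSeq windows of the same length. GP6 held a GATA match at −177 and an ETS match at −79, found in 22.3% and 28.7% of windows. TUBB1 held none of these letters, and the RUNX letters, present in 11% of windows, were in none of the 3. No motif overlapped another in these windows. A match is a string of letters and says nothing of binding. Of the 10 genes, 8 had a RefSeq window.

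RAB27B, at chr18:54717860-54895516 (plus strand, GRCh38), encodes a small GTPase that docks secretory granules at the plasma membrane. It stood at 34.3, 33.7 and 32.5 CPM in −Dox and at 10.9, 12.7 and 13.2 CPM in +Dox. The −Dox libraries were close together and every +Dox library was well below them. RAB27B fell to 36.7% of its −Dox level, a log2 fold change of −1.45 ± 0.074 (SE, n = 3 per group, edgeR adjusted p = 1.52e-07), and ranked 10 of 21045 genes by p. The transcript RAB27B-201, which begins at the printed window, held 99.5% of the gene's estimated counts. The upstream RefSeq start lies 110620 bases away, and the transcript that GENCODE begins beside it, RAB27B-202, held 0.352%. In TPM, the unit scaled by transcript length as well as library size, RAB27B-201 held 78.4%, 90% and 89.2% of the gene in −Dox and 100%, 84.3% and 76.2% in +Dox. RAB27B-202 stood at 1.18, 0.217 and 0.517 TPM in −Dox and at 0, 0.163 and 0.577 TPM in +Dox, and overlapped between groups.

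RAB27A, the paralog that shares effectors with RAB27B, did not follow it. Its level was 76.1, 72.3 and 69.7 CPM in −Dox and 69.2, 71.9 and 75.5 CPM in +Dox. These groups overlapped, with a log2 fold change of −0.01 (95% interval −0.13 to 0.11, edgeR adjusted p = 0.933). In TPM, RAB27B was at 0.154, 0.14 and 0.142 of RAB27A in −Dox and at 0.0414, 0.0551 and 0.0592 of it in +Dox. Thus RAB27A was the more abundant RAB27 transcript in all 6 libraries, and the gap was wider in every +Dox library.

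Of 16 genes for RAB27 partners and secretion, 14 were tested, 3 rose and none fell by edgeR. These 3 are 21.4% of those tested, beside 15.8% of all genes tested and 22% of genes with a mean of at least 1 CPM. SYTL4, which encodes the RAB27 effector granuphilin, stood at 21.6, 21 and 20.1 CPM in −Dox and at 26.1, 26.7 and 27.7 CPM in +Dox. All +Dox libraries lay above all −Dox libraries, and SYTL4 rose by a log2 fold change of 0.36 ± 0.058 (SE, edgeR adjusted p = 0.0012). STXBP2, a syntaxin-binding protein of granule fusion, rose by 0.18 (adjusted p = 0.0308) and SNAP23, a SNARE of platelet secretion, by 0.17 (adjusted p = 0.0398) in the same edgeR test. SYTL4 was called in all 15 settings tried, the main test among them, but STXBP2 in 8 and SNAP23 in 5, and the replicate block and transcript length offsets each left SYTL4 as the only gene of this list called. MADD, the RAB27 exchange factor, had a log2 fold change of −0.09 (95% interval −0.21 to 0.02), and UNC13D, the RAB27 effector Munc13-4, one of −0.06 (−0.16 to 0.04), and neither passed the test. The list's median log2 fold change was −0.02.

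GP6, at chr19:55013705-55038264 (minus strand), encodes glycoprotein VI, the platelet's signalling receptor for collagen. Its level was 14.6, 15.5 and 17.8 CPM in −Dox and 9.48, 8.72 and 10.3 CPM in +Dox. The lowest −Dox library was above the highest +Dox library. GP6 fell to 59.5%, a log2 fold change of −0.75 ± 0.093 (SE, n = 3 per group, edgeR adjusted p = 1.86e-04). Its protein-coding transcripts summed to 6.55, 6.59 and 7.3 TPM in −Dox and to 3.94, 3.88 and 4.09 TPM in +Dox, without overlap. The retained-intron transcript of GP6 ranged from 0.334 to 2.41 TPM and overlapped between groups. The antisense gene GP6-AS1 shares 1.63% of GP6's exon bases and had a log2 fold change of −0.27 (95% interval −0.59 to 0.05), and an unnamed gene on the same strand shares 9.99%.

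Glycoprotein VI signals through the Fc receptor gamma chain and an adaptor complex. FCER1G, which encodes that chain, had no more than 9 counts in any library and was left untested. LCP2, which encodes the adaptor SLP-76, stood at 34.9, 33.7 and 41.1 CPM in −Dox and at 17.8, 16.3 and 18.2 CPM in +Dox. Every +Dox library was below every −Dox library, and LCP2 fell by 1.07 on the log2 scale (log2 fold change −1.07 ± 0.078, SE, edgeR adjusted p = 2.68e-06). LAT, the membrane adaptor that binds SLP-76 through a bridging protein, stood at 2.41, 2.38 and 2.45 CPM in −Dox and at 1.16, 1.48 and 1.06 CPM in +Dox. The LAT groups did not overlap either, with a log2 fold change of −0.97 ± 0.189 (SE, edgeR adjusted p = 0.00393). BTK, a tyrosine kinase of the same cascade, moved the other way, with a log2 fold change of 0.54 ± 0.046 (edgeR adjusted p = 8.89e-06). RAP1B, a GTPase of integrin activation, fell by 0.32 on the log2 scale and PTGS1, the cyclooxygenase of thromboxane synthesis, rose by 0.41 in that test. In all, 7 of 17 signalling genes tested were called, 3 higher and 4 lower, with a median log2 fold change of −0.05. Their 41.2% stands beside 15.8% of all genes tested and 22% of genes with a mean of at least 1 CPM. LAT was not called with transcript length offsets, by edgeR or DESeq2, where its log2 fold change was as small as −0.67. STIM1, the calcium sensor of the endoplasmic reticulum and the third gene called higher, was chosen for mention after its values were seen and was called in 9 of 15 settings. The list's count fell to 5 by edgeR with transcript length offsets, and GNAQ, a G protein alpha subunit, was called lower by DESeq2 with them.

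ITGA2B and ITGB3 encode the 2 chains of integrin αIIbβ3, the fibrinogen receptor, and lie on chromosome 17 at chr17:44372180-44389649 (minus strand) and chr17:47253827-47313743 (plus strand). ITGA2B stood at 9.16, 9.17 and 9.26 CPM in −Dox and at 11.1, 10.7 and 10.2 CPM in +Dox. ITGB3 stood at 2.49, 2.08 and 2.48 CPM in −Dox and at 1.68, 1.61 and 2.03 CPM in +Dox. The groups did not overlap for either gene, and the values lay in opposite directions, but neither passed the adjusted threshold. The log2 fold change of ITGA2B was 0.21 (95% interval 0.04 to 0.38, edgeR adjusted p = 0.0873) and that of ITGB3 was −0.41 (−0.79 to −0.02, edgeR adjusted p = 0.147). Counting these, the groups did not overlap for 6 of the 8 tested genes, 2 higher and 4 lower, as was so for 33.2% of all genes tested. The ratio of ITGA2B to ITGB3 in TPM ranged from 10.6 to 15.3 in −Dox and from 14.8 to 21.8 in +Dox, with overlap. With transcript length offsets, by edgeR or DESeq2, the log2 fold change was 0.10 for ITGA2B and −0.34 for ITGB3. In TPM the groups of each gene overlapped.

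The ITGA2B estimate mixed 2 kinds of transcript. Its 3 protein-coding transcripts summed to 1.57, 1.54 and 1.58 TPM in −Dox and to 1.99, 2.07 and 2.17 TPM in +Dox, so all +Dox libraries were higher. Its 7 retained-intron transcripts summed to 4.11, 3.26 and 3.21 TPM in −Dox and to 3.1, 3.69 and 3.02 TPM in +Dox, and these groups overlapped. The leading transcript ITGA2B-201 held 26.6%, 30.4% and 31.3% of the gene's TPM in −Dox and 39.1%, 35% and 36.5% in +Dox. That difference of 7.47 percentage points gave p = 0.1 in an exact two-sided permutation test, the smallest p that 3 against 3 allows, and 0.3 after Benjamini-Hochberg adjustment over the genes with several transcripts. ARHGAP6-205 gave the same p for a lower share in +Dox, which overlapped when taken in estimated counts, and the shares of the leading transcripts of RAB27B, GP6, ITGB3 and THBS1 overlapped between groups.

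**Figure D2:**
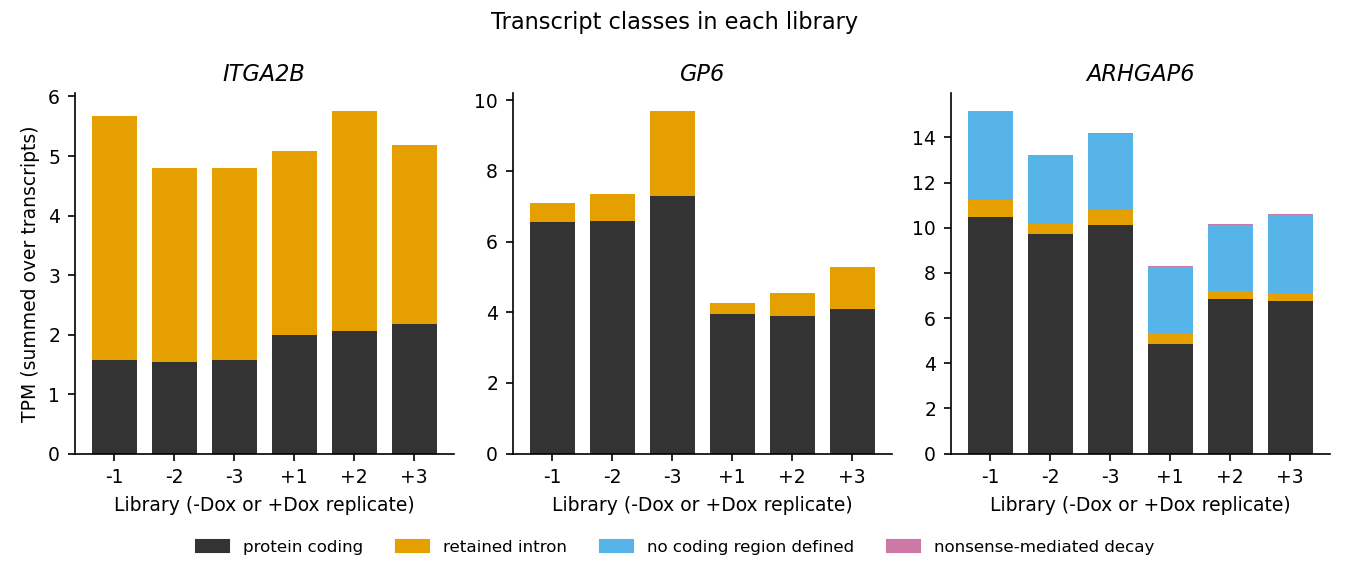
TPM of ITGA2B, GP6 and ARHGAP6 in each library (−1 to −3 are −Dox replicates, +1 to +3 are +Dox replicates), stacked by the GENCODE class of the transcript; each panel has its own axis from 0. Protein-coding ITGA2B lies at 1.54 to 1.58 TPM in −Dox and at 1.99 to 2.17 TPM in +Dox, a difference not tested by class, below a larger retained-intron class, and the protein-coding class of GP6 and ARHGAP6 is smaller in every +Dox library.

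GP1BB, at chr22:19723539-19724771 (plus strand), encodes the beta chain of glycoprotein Ib, the platelet receptor for von Willebrand factor. It stood at 29.4, 42.3 and 44.8 CPM in −Dox and at 43.9, 37.6 and 45 CPM in +Dox. The first −Dox library was lowest and the groups overlapped, with a log2 fold change of 0.12 (95% interval −0.15 to 0.39, edgeR adjusted p = 0.584). Without that library the log2 fold change was −0.05. The GP1BB counts are uncertain, because a read-through gene on the same strand (ENSG00000284874) holds 100% of its exon bases and SEPTIN5 shares 43% of them. The read-through gene rose by a log2 fold change of 0.56 (edgeR adjusted p = 0.00356), while SEPTIN5, a septin, had one of 0.03 (95% interval −0.10 to 0.17).

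The other chains of the GPIb-IX-V complex were scarce. GP1BA, the chain that binds von Willebrand factor, averaged 0.744 CPM in −Dox and 0.887 CPM in +Dox, with a log2 fold change of 0.26 (95% interval −0.37 to 0.88). GP9, at chr3:129060779-129062406, had 1, 2 and 0 counts in −Dox and 0 in each +Dox library, where a count of 0 allows up to 3 counts, or 0.0355 to 0.0423 CPM. GP5 reached at most 2 counts in a library. GP9 and GP5 were not tested, and no fold is given for either.

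Of 16 other adhesion receptor genes, 9 were tested and 1 was called in the main edgeR test. CD151, a tetraspanin with a log2 fold change of −0.14, was called lower as well by DESeq2 and by edgeR without −Dox replicate 1. The gene called in the main test was CD226, an adhesion molecule of platelets and lymphocytes, at 2.12, 1.55 and 1.47 CPM in −Dox and 2.99, 2.94 and 2.91 CPM in +Dox. The +Dox libraries were all higher, with a log2 fold change of 0.78 ± 0.177 (SE, edgeR adjusted p = 0.00958), which ran from 0.68 to 2.19 over 15 settings and was highest with transcript length offsets. ITGB1, the integrin β1 chain, had a log2 fold change of 0.08 (95% interval −0.02 to 0.18), and ITGA2, its collagen-binding partner, had no more than 14 counts in any library and was left untested. Among agonist receptors, 2 of 6 tested were called, both lower by edgeR. The called shares were 11.1% of adhesion and 33.3% of agonist receptors tested, beside 15.8% of all genes tested. P2RY1, a receptor for ADP, fell from 92 ± 6.1 to 71.8 ± 3.89 CPM (SD, n = 3 per group; adjusted p = 0.00149), and TBXA2R, the thromboxane receptor, from 15.6 ± 1.93 to 10.5 ± 0.123 CPM (adjusted p = 0.00109).

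TUBB1, at chr20:59019429-59026654 (plus strand), encodes the beta tubulin of the platelet marginal band. Its level was 5.66, 7.01 and 5.84 CPM in −Dox and 11.3, 12.5 and 12 CPM in +Dox. Every +Dox library lay above every −Dox library. TUBB1 rose 1.94-fold, a log2 fold change of 0.95 ± 0.099 (SE, n = 3 per group, edgeR adjusted p = 4.81e-05), just short of the DEG limit. Against TUBA4A, an alpha tubulin of platelets, the TPM ratio of TUBB1 was 0.0586, 0.0696 and 0.0462 in −Dox and 0.0847, 0.115 and 0.108 in +Dox, again without overlap. ATP5F1E, a gene of the mitochondrial ATP synthase on the other strand, shares 35.5% of TUBB1's exon bases. ATP5F1E had a log2 fold change of 0.06 (95% interval −0.14 to 0.25), and whether the counting used strand was not given in the sources used here.

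ARHGAP6, on chromosome X at chrX:11117651-11665920 (minus strand), encodes a GTPase-activating protein for RHOA that acts on the actin cytoskeleton. It stood at 45.9, 43.3 and 45.3 CPM in −Dox and at 25.5, 29.9 and 31.4 CPM in +Dox. The first +Dox library was lowest, and no +Dox library reached the −Dox range. ARHGAP6 fell to 64.5%, a log2 fold change of −0.63 ± 0.072 (SE, n = 3 per group, edgeR adjusted p = 1.00e-04). Protein-coding ARHGAP6 transcripts summed to 10.5, 9.74 and 10.1 TPM in −Dox and to 4.87, 6.83 and 6.78 TPM in +Dox, while the transcript without a defined coding region ranged from 2.9 to 3.94 TPM over all libraries and overlapped. The leading ARHGAP6-205 starts 238147 bases from the RefSeq window, so that window is not printed.

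All 19 other cytoskeletal genes were tested, and 4 rose and 1 fell by edgeR. Called genes made up 26.3%, beside 15.8% of all genes tested and 22% of genes with a mean of at least 1 CPM. MYL9, a myosin light chain, rose from 1.74 ± 0.142 to 2.99 ± 0.389 CPM (SD, n = 3 per group; adjusted p = 0.00652), and MYH10, the non-muscle myosin IIB heavy chain, from 142 ± 1.78 to 176 ± 3.18 CPM (adjusted p = 4.47e-04). TPM1, a tropomyosin, and GSN, the actin-severing gelsolin, rose by log2 fold changes of 0.37 and 0.44. With transcript length offsets MYH10 and GSN were not called by edgeR or DESeq2 and MYL9 was not called by edgeR, and GSN was also not called without −Dox replicate 1, −Dox replicate 2 or +Dox replicate 3. DIAPH1, a formin downstream of RHOA, fell by 0.46 on the log2 scale (edgeR adjusted p = 5.14e-04). MYH9, the main platelet myosin heavy chain, had a log2 fold change of −0.05 (95% interval −0.19 to 0.09) and FLNA, the filamin that anchors glycoprotein Ib, one of −0.08 (−0.24 to 0.09). FLNA stood at 295 CPM in −Dox replicate 1 and at 356 and 383 CPM in the others, and without that library it was called lower by edgeR, with a log2 fold change of −0.18 (adjusted p = 0.0334). For TLN1 and FERMT3, which encode the integrin activators talin and kindlin-3, the values were 0.16 (0.05 to 0.27, edgeR adjusted p = 0.058) and 0.00 (−0.13 to 0.13). TLN1 was called higher by DESeq2 and by edgeR with no filter, with 10 counts required in every library and without −Dox replicate 3, and VCL, which encodes vinculin, was called lower by DESeq2 with and without transcript length offsets.

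**Figure D3:**
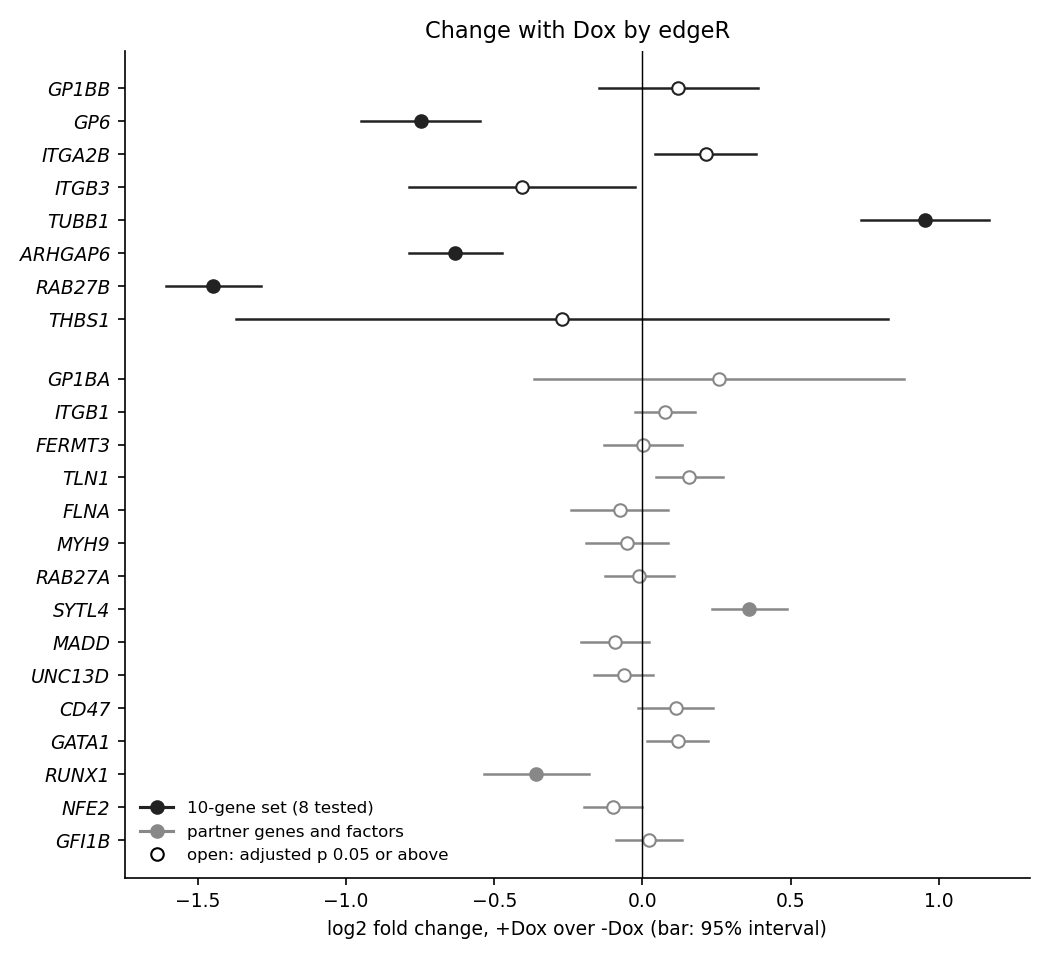
log2 fold change (+Dox over −Dox) with its 95% interval by edgeR for the 8 tested genes (black) and 15 partner genes and factors (grey); filled points passed an adjusted p of 0.05 and open points did not. Among the genes drawn, which do not include LCP2 and LAT, RAB27B at −1.45 and TUBB1 at 0.95 lie farthest from 0. The interval of THBS1, at −1.37 to 0.83, is the widest drawn.

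PF4 and THBS1 encode proteins that platelets release from alpha granules. PF4, platelet factor 4, at chr4:73980811-73982027, had 0 counts in all 6 libraries. THBS1, thrombospondin 1, at chr15:39581079-39599466, had 27, 22 and 25 counts in −Dox and 25, 9 and 26 in +Dox. The second +Dox library was low and the others were alike. THBS1 had a log2 fold change of −0.27 (95% interval −1.37 to 0.83, edgeR adjusted p = 0.788) and was not called. Without that library the log2 fold change was 0.11. With transcript length offsets it was −1.27 by edgeR (adjusted p = 0.343) and −1.33 by DESeq2, and the log2 ratio of mean TPM was −1.47. The other granule chemokines were as scarce, with at most 7 counts of PPBP in a library and none of PF4V1 in any. Other alpha granule genes were called in 2 of 8 tested, both higher by edgeR: SRGN, the proteoglycan that packs granule contents, rose from 229 ± 6.02 to 276 ± 16.7 CPM (SD, n = 3 per group; adjusted p = 0.00327) and SPARC, or osteonectin, from 2.67 ± 0.464 to 4.45 ± 0.387 CPM (adjusted p = 0.00589). The log2 fold change of SPARC ran from 0.61 to 1.56 over 15 settings. Called alpha granule genes were 25% of those tested, beside 15.8% of all genes tested and 22% of genes with a mean of at least 1 CPM. CD47, a receptor of thrombospondin 1, had a log2 fold change of 0.11 (95% interval −0.01 to 0.24) and was called only with transcript length offsets, by edgeR and DESeq2. Without those offsets, 0 of 2 tested genes of the thrombospondin list were called by edgeR or DESeq2, with 0 at an unadjusted p under 0.05 in the main edgeR test. Of 11 dense granule genes tested 0 were called in the main edgeR test, with 4 at an unadjusted p under 0.05. HPS1 and LYST, which encode proteins of lysosome-related organelle formation, were called higher by DESeq2 and by edgeR with no filter. By edgeR, LYST was also called with 10 counts required in every library and without +Dox replicate 1, and HPS1 without −Dox replicate 3, while DESeq2 with transcript length offsets called 0.

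By abundance per length, GP1BB led in −Dox at 49.3 ± 7.66 TPM (SD, n = 3), followed by ARHGAP6 at 14.2 ± 0.977, GP6 at 8.05 ± 1.44, RAB27B at 5.91 ± 0.619, ITGA2B at 5.09 ± 0.508, TUBB1 at 1.83 ± 0.175 and ITGB3 at 0.387 ± 0.0684 TPM. RAB27B and ITGA2B overlapped, as did GP9 with both THBS1 and PF4 near the floor, while each other pair of neighbours was separate. In +Dox the order was GP1BB at 53.8 ± 2.01, ARHGAP6 at 9.69 ± 1.22, ITGA2B at 5.35 ± 0.363, GP6 at 4.7 ± 0.518, TUBB1 at 3.45 ± 0.29, RAB27B at 2.08 ± 0.459 and ITGB3 at 0.297 ± 0.0468 TPM. ITGA2B and GP6 overlapped there, and GP9 and PF4 were both at 0. RAB27B, above TUBB1 in every −Dox library, was below it in every +Dox library. The GP1BB level rests on counts that it may share with the read-through gene. The ITGA2B level includes its retained-intron transcripts. Protein-coding ITGA2B alone averaged 1.56 TPM in −Dox and 2.08 TPM in +Dox, below TUBB1 in both groups.

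The factors that direct megakaryocyte genes were present except FLI1, an ETS factor, which had 0 counts in all 6 libraries. GATA1, the shared factor of the erythroid and megakaryocytic lineages, stood at 157, 168 and 168 CPM in −Dox and at 180, 173 and 183 CPM in +Dox. The groups did not overlap, and the log2 fold change was 0.12 (95% interval 0.02 to 0.22, edgeR adjusted p = 0.113). RUNX1, a factor required for megakaryocyte maturation, fell from 44.5, 35.9 and 39.2 CPM to 29.1, 34.1 and 30.1 CPM, a log2 fold change of −0.36 ± 0.082 (SE, edgeR adjusted p = 0.00969). TAL1, a GATA1 partner, rose from 56.3, 56.5 and 60.2 CPM to 78.7, 78.2 and 77.9 CPM, with a log2 fold change of 0.44 ± 0.049 (edgeR adjusted p = 8.34e-05). ETV6, an ETS repressor, fell by 0.35 on the log2 scale (edgeR adjusted p = 0.022). NFE2, a subunit of NF-E2, had a log2 fold change of −0.10 (95% interval −0.20 to 0.00). GFI1B, a transcriptional repressor active in both lineages, had one of 0.02 (−0.09 to 0.13). In all, 3 of 11 factors tested were called, 1 higher and 2 lower. That is 27.3%, beside 15.8% of all genes tested and 22% of genes with a mean of at least 1 CPM. Without +Dox replicate 3 TAL1 alone was called. The log2 fold change of RUNX1 ran from −0.66 to −0.27 over 15 settings, and ETV6 was called in 9 of 15 settings. SRF, the serum response factor, was called lower by DESeq2.

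**Figure D4:**
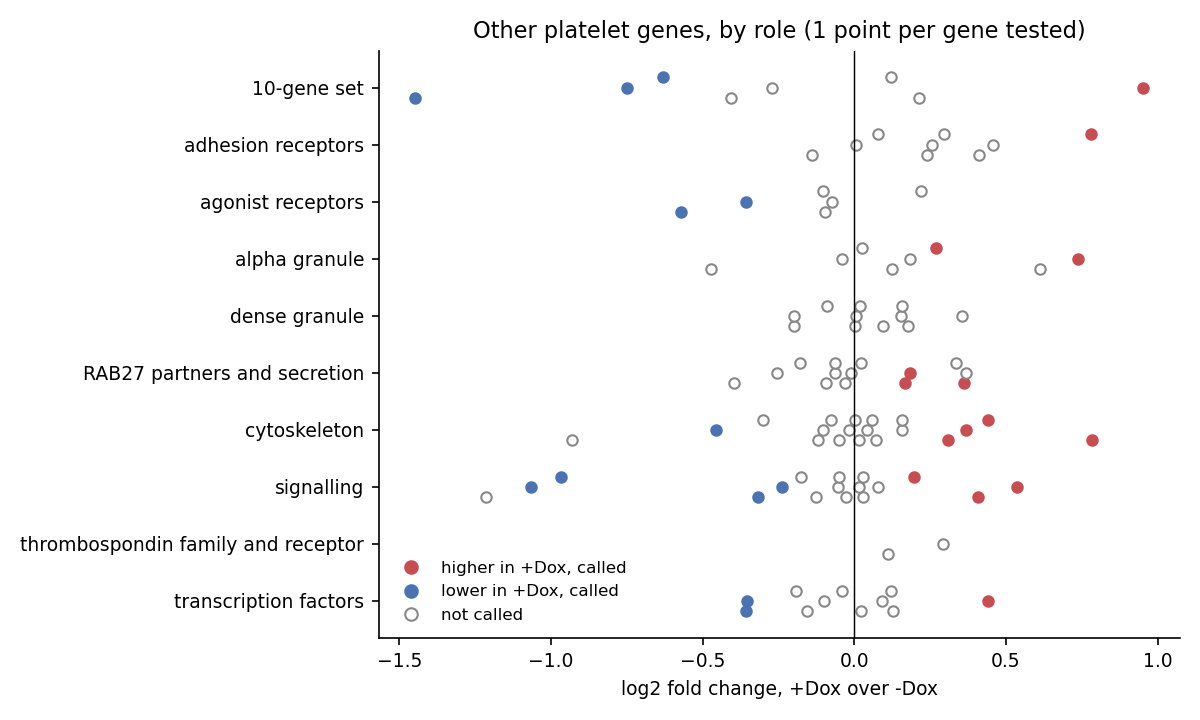
log2 fold change (+Dox over −Dox) of every tested gene, 1 point each, by role; red points were called higher, blue called lower and open points were not called, and the vertical offset within a row carries no value. The 97 tested genes of the 9 wider lists hold 14 called higher and 9 called lower, and the 10-gene set holds 1 higher and 3 lower of 8.

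Over the 9 wider lists together, 97 of 119 genes were tested and 23 were called by edgeR, 14 higher and 9 lower. That share, 23.7%, stands beside 15.8% of all genes tested and 22% of genes with a mean of at least 1 CPM. Their median log2 fold change was 0.02, and LCP2 was the only one to meet the DEG limits, as it did in 13 of 15 settings, and without −Dox replicate 3 its log2 fold change was −0.98. Of the 119 genes, 8 had 0 counts in every library. Since the lists were chosen with earlier results of these data known, their called shares are no test of the lists.

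Erythroid genes moved in the same libraries. Of 10 erythroid identity genes 7 were called by edgeR, 5 higher and 2 lower, beside 15.8% of all genes tested and 22% of genes with a mean of at least 1 CPM. ALAS2, which encodes the first enzyme of erythroid heme synthesis, rose from 30.4 ± 1.43 to 87.8 ± 6.08 CPM (SD, n = 3 per group, edgeR adjusted p = 2.5e-08). KLF1, SLC4A1 and EPB42 rose with log2 fold changes of 0.46, 0.97 and 2.83, and HBZ and TFRC fell by 0.40 and 0.34 on the log2 scale. SLC4A1 was not called by edgeR with transcript length offsets or without +Dox replicate 2. The summed erythroid level was 8390, 9521 and 8537 CPM in −Dox and 8882, 8166 and 8554 CPM in +Dox, led by the globin HBG2, and overlapped between groups. Among markers of other blood cells, 1 of 2 tested of 4 was called: LYZ, a myeloid lysozyme, stood at 119, 144 and 169 CPM in −Dox and at 98.4, 97.9 and 116 CPM in +Dox (log2 fold change −0.47, edgeR adjusted p = 0.00837). LYZ was the most abundant of that list, whose sum ran from 121 to 171 CPM in −Dox and from 100 to 119 CPM in +Dox. The part of these genes in the changes of the platelet genes was not tested.

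Markers taken for non-blood cells were low. CDH5, KDR and VWF of the endothelial list were each at or below 0.071 CPM, and VWF is also on the alpha granule list. The 6 endothelial genes summed to between 8.49 and 8.77 CPM in −Dox and to between 9.74 and 11.1 CPM in +Dox. PECAM1, which platelets also carry, led them. The 4 fibroblast genes summed to at most 2.2 CPM, led by COL1A1, with LUM at 0. None of these genes was called by edgeR or DESeq2, with 1 endothelial gene and 0 fibroblast genes at an unadjusted p under 0.05.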

How the data were processed

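RNA was sequenced as paired ends of 150 cycles after polyA selection. The authors quantified each library with Salmon 1.10.2, and the deposited files hold estimated counts, TPM and effective lengths (another unit) for 252045 transcripts. The index, strand and bias settings were not given in the sources used here. The submitters' notes also list FastQC, MultiQC, STAR 2.7.11b and DESeq2 3.19, and the build hg38.

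Transcripts were matched to GENCODE v44 (251142 with version, 251612 in all, 433 not), summed per gene and rounded. Matched counts per library were scaled by TMM factors of 0.974 to 1.03 to give CPM. The 21045 genes whose counts averaged over 10 went into the quasi-likelihood test of edgeR 4.0.16 (R 4.3.3), with Benjamini-Hochberg adjustment over all of them. DESeq2 1.42.0, other filters and scalings, transcript length offsets, a replicate block and leaving out each library were alternatives. SE is the absolute log2 fold change over the square root of F. Counting floors cover counting error only. On simulated data for +Dox against −Dox, edgeR gave as DEGs 98% of 200 genes changed by 1.5 on the log2 scale, and 11 unchanged genes, among 20685 genes. The changed genes were drawn from those averaging over 1 CPM, so smaller changes and scarcer genes were not covered.

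The 10 genes, the partner genes and the lists by role were chosen with earlier results of these data known. Beside the 10 genes, PCBP1, fixed partners and genes sharing exons, up to 5 genes per list with the smallest p at a mean of at least 1 CPM were named. Marker lists were described by their counts and sums, and some named genes are not reported here.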

Additional observations from a re-analysis of the deposited data

How the results depend on the processing

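RAB27B (log2 fold change −1.503 to −1.370), GP6 (−0.81 to −0.66), TUBB1 (0.89 to 1.05) and ARHGAP6 (−0.70 to −0.52) were called in all 15 settings, and ITGA2B, ITGB3, GP1BB and THBS1 in none of theirs. With each library left out in turn, 1 to 2 of the 10 genes met the DEG limits (TUBB1 joined without −Dox replicate 2, at 1.05), GP1BB ran from −0.048 to 0.24 and THBS1 from −0.55 to 0.11. The cause of these shifts was not tested. With transcript length offsets THBS1 was at −1.27, 1882 genes were called (3333 in the main test), and 9 genes of the wider lists rose in place of 14. Without a filter, 515 genes met the DEG limits in place of 308. The replicate numbers did not pair the libraries (correlations of same-numbered deviations 0.00752, −0.0605 and −0.00285), and with a replicate block 2490 genes were called and 298 met the DEG limits. The RAB27B-201 share differed by −0.038 percentage points in estimated counts against 0.998 in TPM, and by −5.58 to 6.31 with each library left out, and the GP6-203 share by −4.17 to 9.04. In TPM the log2 ratio of mean levels was 0.07 for ITGA2B and −1.47 for THBS1. GP1BB summed with its read-through gene gave a log2 fold change of 0.25 (edgeR adjusted p = 0.117), and with SEPTIN5 as well 0.11 (0.378), both chosen after seeing the data. The low counts of THBS1 and GP9 limit the precision of their values, and whether PF4, at 0 counts, was expressed below detection was not tested.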
